A study of Rattus norvegicus with 6 samples.

Results

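The respiratory chain and ATP synthase genes were followed in the rostral ventrolateral medulla (RVLM) of spontaneously hypertensive rats (SHR) and of normotensive rats. Members were all probe sets, the groups of short probes that an array uses to read 1 transcript, whose single gene symbol in the deposited table begins with Nduf, Sdh followed by a to d, Uqcr, Cox4, Cox5, Cox6, Cox7, Cox8 or Atp5. Of 31042 probe sets that were not array controls, 84 fitted this rule, and they covered 74 of the 13682 genes with a single symbol. Subunits of the 5 complexes made up 69 of them, assembly and associated factors 13, and 2 probe sets matched by prefix alone: Cox4nb, now named Emc8, encodes a part of an endoplasmic reticulum complex, and Cox6c-ps1 is a pseudogene. All 74 genes were found in a RefSeq table of assembly GRCr8, in which 15 have a newer symbol. The symbols of the deposited table are used here, so that Atp5a1, Atp5b and Atp5i stand for Atp5f1a, Atp5f1b and Atp5me.

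The study hybridised RNA of 6 rats to the same kind of 3' expression array, 1 animal per array. There were 3 SHR, inbred rats whose arterial pressure climbs on its own, and 3 rats of a strain that the labels spell Wistar-Kyoko, taken here as Wistar-Kyoto (WKY), its usual normotensive comparison strain. No rat of either strain was treated, and body weight was 250 to 350 g. Age and sex are not given in the sources used here, and a difference between 2 inbred strains cannot be told apart from a difference in their genetic background as a whole.

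Mitochondria pass electrons from NADH through complex I and from succinate through complex II to ubiquinone, then through complex III and cytochrome c to complex IV, where oxygen is reduced. Complexes I, III and IV pump protons across the inner membrane, and ATP synthase, also called complex V, uses the return of those protons to make ATP. Most subunits are encoded in the nucleus and a few core subunits in mitochondrial DNA, and neurons, which spend much ATP on ion pumping, carry large amounts of all 5 complexes. RVLM neurons drive the sympathetic nerves that set arterial pressure, and mitochondrial function in this nucleus has been a topic of hypertension research.

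Nuclear genes of these complexes are known targets of the transcription factors NRF1, GABPA (also called NRF2) and YY1. RefSeq promoters on GRCr8, each running from 250 bases before the gene start to 50 after it, were at hand for 65 of the 72 member genes other than Cox4nb and Cox6c-ps1. The letters GCGCANGCG, a core of the NRF1 motif in which N is any base, stood on either strand in 15 of these 65 promoters (23.1%), against 8.04% of 18999 protein-coding promoters of the same length. This shortened core was chosen after a first search, so its shares are a description and no test. These letters read almost alike on both strands, so 1 place can match on both, and it was counted once. All motifs were searched on both strands. CCGGAAGT, a GABPA motif, was in 7 (10.8%, against 4.99%). AAGATGGC, a YY1 motif that contains the letters of a start codon, was in 15 (23.1%, against 3.92%). The letters TATAAA, by contrast, were in 4 (6.15%, against 13.1%). At least 1 of the first 3 motifs was in 32 of the 65. Among them were 13 of 25 for complex I, 2 of 4 for complex II and 3 of 5 for complex III. The rest were 2 of 11 for complex IV, 8 of 11 for complex V and 4 of 9 for the factors. No share over protein-coding promoters is given here for these joint counts, so they are a description only. The windows below, from RefSeq, are 30 bases long and show 1 match for members of each complex, with the match in capitals, read 5′ to 3′ along the gene. They are printed to show the motif letters where they occur, and the other 33 of the 65 promoters hold none of the first 3 motifs. A match describes letters, not a bound site. The first 5 carry the NRF1 letters (on the opposite strand in Uqcrc1), the next 2 those of GABPA and the last 3 those of YY1.
Ndufa5, chr4:53971248-53971277, minus strand: cgtatgagctGCGCAGGCGcaaatctctcc
Sdha, chr1:30764497-30764526, plus strand: ggagcgtgttGCGCAGGCGcagagccttcc
Uqcrc1, chr8:118468150-118468179, plus strand: ttccttacagCGCCTGCGCctcatactcca
Atp5c1, chr17:73333667-73333696, plus strand: ccgagctcccGCGCACGCGcagtgagcctc
Atp5i, chr14:1464774-1464803, plus strand: ttgcgctacgGCGCATGCGctttcctggct
Ndufb7, chr19:41477289-41477318, minus strand: ggctagatgacCCGGAAGTcactgaagggg
Cox5b, chr9:46417812-46417841, plus strand: tctgtctgttcCCGGAAGTgcatctgcttg
Ndufs4, chr2:47794892-47794921, minus strand: ttgcccacaggAAGATGGCggcggtctcaa
Sdhc, chr13:86098004-86098033, minus strand: ggccggaactcAAGATGGCtgcgctcttgc
Atp5o, chr11:44657464-44657493, minus strand: ctgcccgggaaAAGATGGCcgcaccagcaa

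Across the whole table the arrays were alike in detection calls and medians, with 64.8% to 67% of probe sets called Present and median log2 signals of 7.43 to 7.47. Testing was limited to the 20790 probe sets with a Present detection call on 3 or more arrays. The catecholamine markers Th, Dbh and Pnmt, which define the C1 neurons of this nucleus, were Present on all 6 arrays. Their levels were less even: Th had log2 signals of 9.55, 9.96 and 10.99 in SHR against 9.50, 8.84 and 11.64 in WKY. The differences of Th, Dbh and Pnmt were 0.17, -0.54 and -0.29, and none was called. What made Th vary between animals was not tested. The hindbrain genes Hoxa5 and Hoxb5 were likewise Present on all 6 arrays. Those 2 Hox genes had log2 differences of -0.99 and -1.52 (SHR minus WKY, unadjusted p = 0.0102 and 0.00212), which were not called. The forebrain marker Emx1 was Absent on all 6 arrays, while Neurod6 was Present on all 6. In a piece of tissue like this, fewer cells of a type and less RNA per cell cannot be told apart.

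None of the 76 kept member probe sets, which stand for 67 genes, differed between the strains at an adjusted p under 0.05 in the limma fit, where 192 of all 20790 kept probe sets (0.924%) did, 109 with SHR higher (0.524%) and 83 with SHR lower (0.399%). At an unadjusted p under 0.05 there was 1 member, lower in SHR, or 1.32%, against 9.52% of all kept probe sets (4.7% with SHR lower, 4.81% with SHR higher). The median log2 difference of the members was -0.02, with a range of -0.38 to 0.31. In linear terms the median SHR signal was 0.983 times the WKY signal. The whole-table count fell to 81, 81 and 78 without WKY replicates 1, 2 and 3, and was 205, 137 and 201 without SHR replicates 1, 2 and 3. The member count at an unadjusted p under 0.05 was 6 without SHR replicate 1, all lower in SHR, 4 without SHR replicate 2 and 2 without WKY replicate 1, while the other 3 omissions left it at 1.

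Under the scaling as deposited, the intervals give the range of signal differences that the spread between animals allows. For 63 of the 76 members (82.9%) the 95% confidence interval of the SHR to WKY ratio lay wholly within 1.25-fold in either direction, and for 71 it lay within 1.5-fold. The same held for 27.1% and 63% of all kept probe sets. Member probe sets were bright, with a median log2 signal of 12.16 against 8.60 over all kept probe sets, and bright probe sets vary less on these arrays. Their median standard error was 0.06, against 0.15 over all kept probe sets. Their median SD between animals of 1 strain was 0.08 in SHR and 0.06 in WKY, against 0.17 and 0.14 over all kept probe sets. For a closer comparison, 2780 other kept probe sets had a mean signal at or above the lower quartile of the members. Of these, 2296 (82.6%) had an interval within 1.25-fold, 20 were called and 10.8% had an unadjusted p under 0.05. Their mean log2 signals start at 10.74, whereas the 76 members include dimmer probe sets, so 82.9% and 82.6% are not directly comparable. Every member whose interval was not within 1.25-fold lay below 10.74, except the brighter probe set of Atp5i. The member with an unadjusted p under 0.05, a probe set of Uqcrc2, also lay below 10.74. Members at or above 10.74 thus had a larger share within 1.25-fold than 82.9%.

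**Figure D1:**
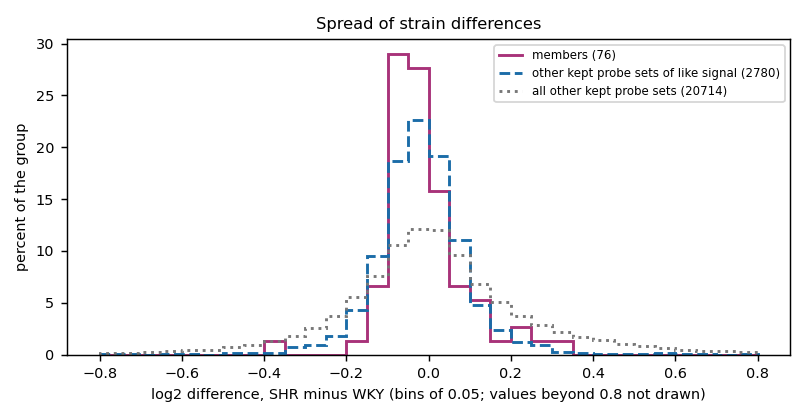
Share of probe sets (y axis, percent of each group) by log2 difference, SHR minus WKY (x axis, bins of 0.05). Outlines are for the 76 kept members, 2780 other kept probe sets and all other kept probe sets. The 2780, labelled as of like signal, are those at or above the lower quartile of member signal and are not matched in signal. The outlines of the members and of the 2780 are both narrow and have their peak just below 0, and the outline of all other probe sets is broader.

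The small differences leaned to the lower side, and that lean depended on how the arrays were scaled. As deposited, 50 of the 76 members (65.8%) had a difference below 0 and 26 above. The share below 0 was 49.7% over all kept probe sets and 59.5% over the 2780 at or above the lower quartile of member signal. With median centring 57 were below 0, and with quantile normalization 37 were below 0 and 39 above. The 3 SHR animals all lay below the 3 WKY animals for 10 members and all above for 2, together 15.8% of the 76. Strains failed to overlap for 15% of all kept probe sets (7.76% with SHR lower, 7.26% with SHR higher). They failed to overlap for 16.9% of those 2780 (336 with SHR lower, 135 with SHR higher). The member share is near both.

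**Figure D2:**
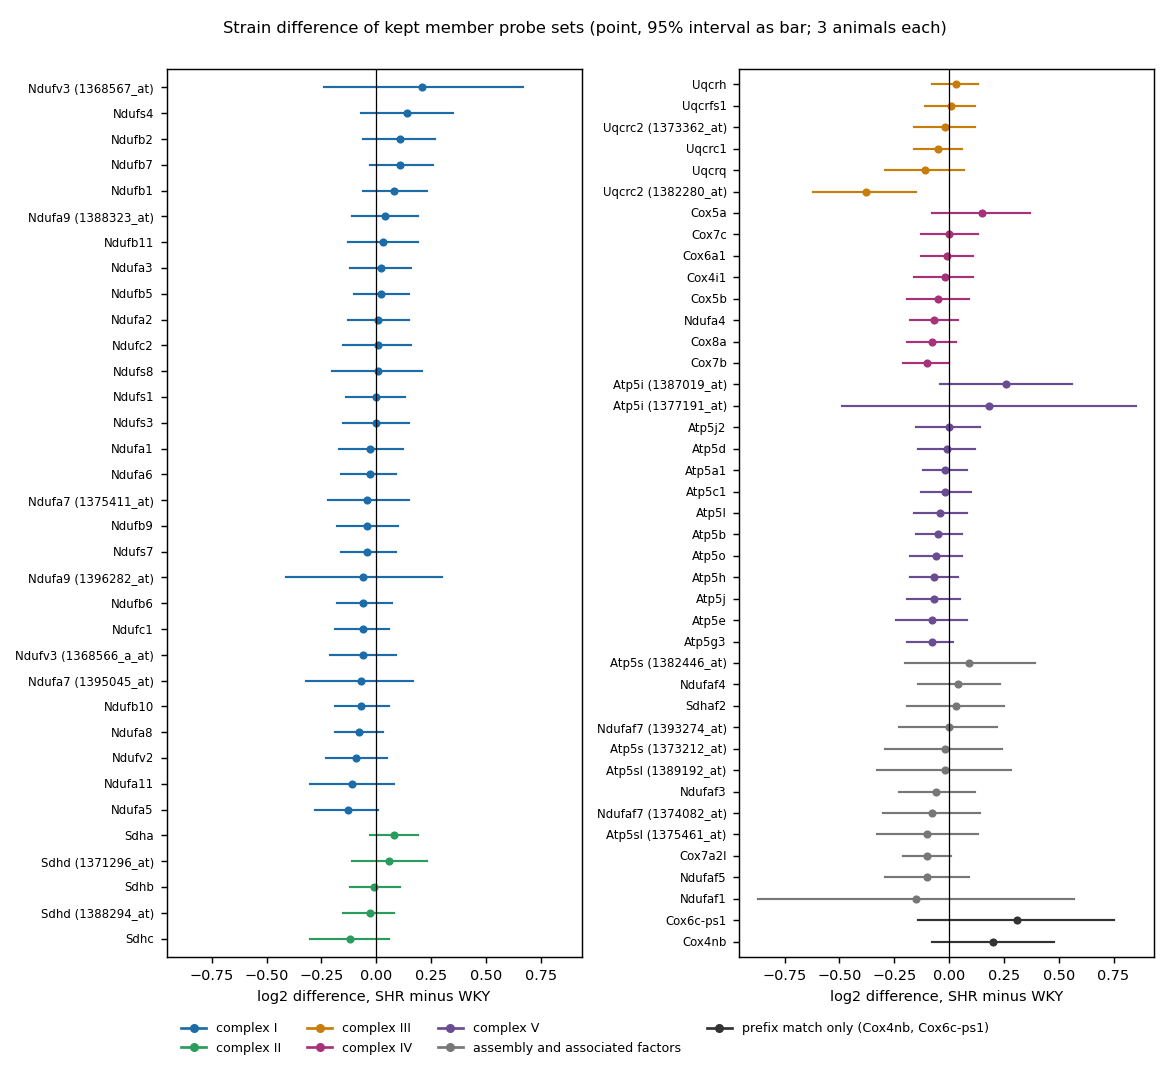
Log2 difference between SHR and WKY (x axis) for 75 of the 76 kept member probe sets (y axis), grouped by complex, with points for the estimate and bars for its 95% confidence interval. The bar of Uqcrc2 1382280_at, at -0.38, is the one that lies wholly below 0, and no bar lies wholly above 0.

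By animal, the members as a group varied more within SHR than between the strains. The median deviation of the 76 members from their own mean over 6 arrays was 0.04, -0.05 and -0.03 in SHR replicates 1, 2 and 3, against 0.02, 0.02 and 0.00 in the WKY replicates. The corresponding medians over all kept probe sets were between 0.00 and 0.01 on each of the 6 arrays. SHR replicate 1 gave the highest of the 6 values for 26 members (34.2%, against 22.3% of all kept probe sets). It gave the lowest for 9 members (11.8%, against 22.7% of all kept probe sets). Over all kept probe sets this array thus held more of both extremes than any other array. SHR replicates 2 and 3 each gave the lowest for 20 (26.3%, against 17.3% and 15%). Complex I was highest in SHR replicate 1 (0.07) and lowest in SHR replicates 2 and 3 (-0.05 in both), against 0.02, 0.04 and -0.01 in WKY. Complex V followed with 0.04, -0.08 and -0.03 in SHR, against 0.04, 0.00 and 0.00 in WKY, and SHR replicate 2 gave the lowest value for 8 of its 13 members. Strains overlapped in both complexes. Without SHR replicate 1, 56 of 76 members had a difference below 0, and without SHR replicate 2, 43 had.

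**Figure D3:**
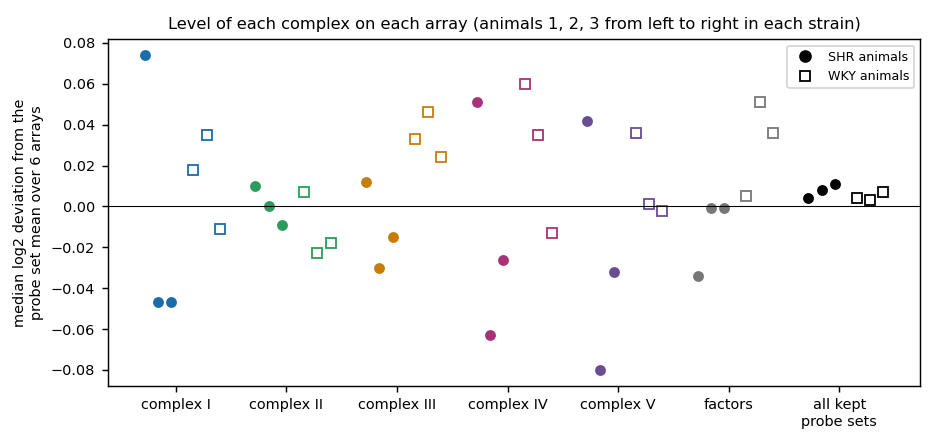
Median log2 deviation from the probe set mean over the 6 arrays (y axis) for each complex, the factors and all kept probe sets (x axis), with filled circles for the 3 SHR animals and open squares for the 3 WKY animals. In complexes I, IV and V the SHR animals span more than the WKY animals and enclose or overlap them, while all kept probe sets lie close to 0.

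Complex I, which takes electrons from NADH, had 31 member probe sets, of which 30 were kept. Their median difference was -0.02 (0.00 after quantile normalization), 16 were below 0 and 14 above, and 27 had an interval within 1.25-fold. Core subunits that carry electrons had differences of under 0.1 in size. Ndufs1, the largest iron-sulfur subunit, had log2 signals of 12.09, 12.16 and 11.99 in SHR against 12.10, 12.07 and 12.08 in WKY, a difference of 0.00 (95% interval -0.14 to 0.13). Ndufv2, an iron-sulfur subunit beside the NADH site, had 12.56, 12.61 and 12.43 in SHR against 12.69, 12.61 and 12.56 in WKY, a difference of -0.09 (-0.23 to 0.05, adjusted p = 0.724). The strains overlapped for both. Ndufs3, a subunit of the matrix arm, and Ndufs7 and Ndufs8, which hold iron-sulfur clusters on the path to ubiquinone, differed by 0.00, -0.04 and 0.01, and their widest interval was that of Ndufs8, -0.20 to 0.21.

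Among the accessory subunits of complex I the differences were at most 0.21 in size. Ndufa5, a subunit of the matrix arm, had log2 signals of 10.88, 10.82 and 10.86 in SHR against 11.02, 10.96 and 10.97 in WKY. All SHR values lay below all WKY values, by a mean of -0.13 (95% interval -0.28 to 0.01, adjusted p = 0.573). Ndufa11, which sits in the membrane arm, had 11.49, 11.27 and 11.15 in SHR against 11.45, 11.40 and 11.38 in WKY, a difference of -0.11 (adjusted p = 0.765), and here the strains overlapped through SHR replicate 1. Ndufs4, whose loss in mice damages the brainstem, had 9.62, 9.53 and 9.52 in SHR against 9.43, 9.33 and 9.49 in WKY. All SHR values lay above all WKY values, by a mean of 0.14 (-0.07 to 0.35, adjusted p = 0.71). The deposited annotation gives this Ndufs4 probe set grade C, where its highest grade is A. Ndufc2, a membrane arm subunit studied as a stroke gene in the stroke-prone line derived from SHR, had 12.51, 12.63 and 12.76 in SHR against 12.54, 12.67 and 12.67 in WKY, a difference of 0.01 (-0.15 to 0.16, adjusted p = 0.985). SHR also lay wholly below WKY for Ndufa8, Ndufb10, Ndufb6 and Ndufc1, at -0.08, -0.07, -0.06 and -0.06, each with an interval that included 0. Ndufb8, whose signals of 9.97 to 10.35 were called Absent on every array, was not kept.

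Complex II, succinate dehydrogenase, joins the tricarboxylic acid cycle to the chain. All 5 of its probe sets were kept, all 5 had an interval within 1.25-fold, and their median difference was -0.01 (0.02 after quantile normalization). Sdha, the flavoprotein that oxidises succinate, had log2 signals of 12.43, 12.37 and 12.42 in SHR against 12.34, 12.29 and 12.35 in WKY. The 3 SHR animals lay above the 3 WKY animals, by a mean of 0.08 (95% interval -0.03 to 0.19, adjusted p = 0.695). Sdhb, the iron-sulfur subunit, had 12.24, 12.22 and 12.22 in SHR against 12.24, 12.27 and 12.19 in WKY, a difference of -0.01 (-0.12 to 0.11). Sdhc, a membrane anchor, had 12.45, 12.30 and 12.22 in SHR against 12.42, 12.33 and 12.58 in WKY, a difference of -0.12 (-0.30 to 0.06, adjusted p = 0.71). Strains overlapped for both Sdhb and Sdhc. The other anchor, Sdhd, was read by 2 probe sets whose differences were 0.06 and -0.03.

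Complex III, the cytochrome bc1 complex, held the member with the smallest p. Uqcrc2, a core protein of the complex, was read by 2 probe sets that differ in what they show. Probe set 1382280_at, aligned at chr1:197480590-197486868 on the plus strand of Rnor5.0, had log2 signals of 10.11, 10.28 and 10.53 in SHR against 10.65, 10.64 and 10.78 in WKY. Every SHR value was below every WKY value, by a mean of -0.38 (95% interval -0.62 to -0.15) or 0.767-fold, with unadjusted p = 0.00476 and adjusted p = 0.192. It was called in 1 alternative, without SHR replicate 3, at -0.49 and adjusted p = 0.0487, and over the 6 omissions its adjusted p lay between 0.0487 and 0.497. Probe set 1373362_at, at chr1:197490464-197511189, had 12.87, 12.85 and 12.80 in SHR against 12.97, 12.73 and 12.89 in WKY, a difference of -0.02 (-0.16 to 0.12, adjusted p = 0.956) with overlapping strains.

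The deposited annotation treats those 2 probe sets of Uqcrc2 differently. It gives 1373362_at its highest grade, A, used where probes match transcripts of the gene, and 1382280_at grade B, used where the target overlaps the gene on the genome. The alignments are 3595 bases apart, with stated identities of 99.12% and 75.53%. The place of either alignment among the exons or introns of the gene was not worked out, since no Rnor5.0 gene models were used here. The other members of complex III differed less. Uqcrc1, the other core protein, differed by -0.05 (-0.16 to 0.06), Uqcrfs1, the Rieske iron-sulfur protein, by 0.01 (-0.11 to 0.12), and the hinge protein gene Uqcrh by 0.03 (-0.08 to 0.13). Uqcrq, a small membrane subunit, had log2 signals of 11.82, 11.85 and 11.91 in SHR against 11.79, 12.09 and 12.03 in WKY, a difference of -0.11 (-0.29 to 0.07, adjusted p = 0.743), and the lowest of these was WKY replicate 1. The median of the 6 kept probe sets was -0.04 (0.01 after quantile normalization).

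Complex IV, cytochrome c oxidase, has subunits with isoforms for particular tissues, and the calls separated these. The common isoforms Cox4i1, Cox6a1 and Cox8a were Present on all 6 arrays. Cox4i2, the isoform of lung and of cells short of oxygen, and Cox7b2, known from testis, were Absent on all 6. Cox6b2, also known from testis, was Present on none, and Cox6a2, the isoform of heart and skeletal muscle, was Present on SHR replicate 1 and WKY replicate 1. Cox8b, the isoform of muscle and brown fat, was Present on SHR replicate 1 only, with log2 signals of 7.53, 2.62 and 5.16 in SHR against 5.56, 6.07 and 5.01 in WKY. On that array 1 of 7 striated muscle markers, Tnnt2, was likewise Present there and Absent elsewhere, with 8.15, 3.14 and 6.73 in SHR against 6.63, 4.77 and 4.60 in WKY. Ckm, Mb, Myh7 and Tnnt3 were Absent on all 6 arrays, Acta1 was Present on all 6 and Myl1 on 3. The summed signal of the 2 kept markers was 394 to 460 in SHR and 338 to 389 in WKY, and the part of muscle in the Cox8b signal was not tested.

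The 8 kept probe sets of complex IV had a median difference of -0.04 (0.00 after quantile normalization), with 7 below 0 (4 after quantile normalization). Cox7b, a small subunit needed for assembly, had log2 signals of 13.36, 13.48 and 13.44 in SHR against 13.49, 13.55 and 13.54 in WKY. All SHR values lay below all WKY values, by a mean of -0.10 (95% interval -0.21 to 0.00, adjusted p = 0.557), and SHR replicate 2 and WKY replicate 1 nearly touch. Cox8a had 13.45, 13.31 and 13.35 in SHR against 13.48, 13.45 and 13.43 in WKY, a difference of -0.08 (-0.19 to 0.03, adjusted p = 0.669). Cox4i1, which binds the ATP that slows the enzyme, differed by -0.02 (-0.16 to 0.11), Cox6a1 by -0.01 (-0.13 to 0.11) and Cox5b, a nuclear subunit on the matrix side, by -0.05 (-0.19 to 0.09). Ndufa4, once counted with complex I and now with complex IV, differed by -0.07 (-0.18 to 0.04). Cox7c, a small subunit, differed by 0.00 (-0.13 to 0.13). Cox5a had the 1 positive difference of the complex, 0.15 (-0.08 to 0.37, adjusted p = 0.728), from 9.64, 9.73 and 9.46 in SHR against 9.54, 9.39 and 9.46 in WKY. Its single-symbol probe set carries grade E, and the annotation lists 11 of its probes on the opposite strand of the Cox5a transcript, so this value may not be that of Cox5a messenger RNA.

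ATP synthase, complex V, had 13 kept probe sets of 14, with a median difference of -0.04 (0.00 after quantile normalization). As deposited 11 were below 0 and 2 above, and after quantile normalization 5 were below and 8 above. The subunits of the catalytic head had differences of -0.02 and -0.05. Atp5a1, the alpha subunit, had log2 signals of 13.09, 13.02 and 13.06 in SHR against 13.10, 13.07 and 13.06 in WKY, a difference of -0.02 (95% interval -0.12 to 0.08). Atp5b, the catalytic beta subunit, had 13.53, 13.41 and 13.47 in SHR against 13.56, 13.49 and 13.50 in WKY, a difference of -0.05 (-0.15 to 0.06). The strains overlapped for both. Those of the central stalk, Atp5c1 (gamma), Atp5d (delta) and Atp5e (epsilon), differed by -0.02, -0.01 and -0.08. For Atp5e, as for Cox5a, the annotation lists probes on the opposite strand of a transcript, here 10. The Atp5e value is therefore less certain to be that of its messenger RNA, although the probe set carries grade A. Atp5g3, the c subunit of the rotating ring, had 13.47, 13.40 and 13.37 in SHR against 13.55, 13.48 and 13.46 in WKY, a difference of -0.08 (-0.19 to 0.02, adjusted p = 0.654). The side stalk subunits Atp5o, Atp5h and Atp5j differed by -0.06, -0.07 and -0.07. The alignments given for Atp5h and Atp5j lie on chromosome 5, whereas RefSeq places these genes on chromosomes 10 and 11. Those 2 are the only ones of the 76 kept members whose alignments miss the chromosome of the RefSeq gene.

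Atp5i, subunit e, which helps pair ATP synthase molecules in the membrane, had both positive differences of complex V. Probe set 1387019_at had log2 signals of 11.87, 11.27 and 11.36 in SHR against 11.29, 11.30 and 11.13 in WKY. SHR replicate 1 stood apart, SHR replicate 3 was also above every WKY value and SHR replicate 2 lay within the WKY range. The mean difference was 0.26 (95% interval -0.04 to 0.56, adjusted p = 0.602). It was 0.08 without SHR replicate 1 and 0.38 without SHR replicate 2. Probe set 1377191_at, Present on 3 of 6 arrays, had 6.90, 6.36 and 7.41 in SHR against 6.49, 7.10 and 6.54 in WKY, a difference of 0.18 (-0.49 to 0.85). Both carry grade B and their alignments overlap at chr14:2324077-2324791 on the plus strand of Rnor5.0.

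**Figure D4:**
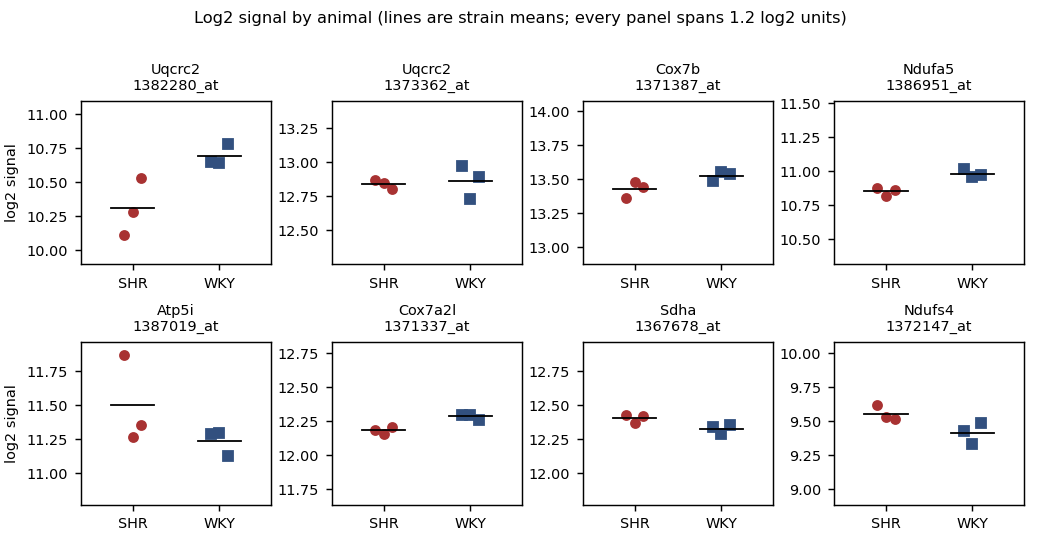
Log2 signal (y axis) of 8 member probe sets in each animal, with circles for SHR, squares for WKY and a line for the strain mean; every panel spans the same 1.2 log2 units. The gap between strains in Uqcrc2 1382280_at has no counterpart in Uqcrc2 1373362_at, and the Atp5i mean in SHR is raised by replicate 1.

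The assembly and associated factors had 12 kept probe sets of 13 and a median difference of -0.04 (-0.05 after quantile normalization), with 9 below 0 and 3 above. Cox7a2l, which links complexes III and IV into supercomplexes, had log2 signals of 12.19, 12.16 and 12.21 in SHR against 12.30, 12.30 and 12.26 in WKY. All SHR values lay below all WKY values, by a mean of -0.10 (95% interval -0.21 to 0.01, adjusted p = 0.606). The complex I assembly factor Ndufaf5 differed by -0.10 (-0.29 to 0.09) and Ndufaf4 by 0.04 (-0.14 to 0.23). Ndufaf1, another, had 7.02, 8.39 and 8.34 in SHR against 7.79, 8.10 and 8.32 in WKY, a difference of -0.15 that SHR replicate 1 carried and that had the widest interval of these factors, -0.87 to 0.57. SHR also lay wholly below WKY for Ndufaf3 (-0.06) and for 1 of the 2 probe sets of Atp5sl (-0.10), now named Dmac2. Sdhaf2, which attaches the flavin to Sdha, differed by 0.03 (-0.19 to 0.25). Ndufa4l2, a relative of Ndufa4 known from low oxygen, was Absent on all 6 arrays. The 2 prefix-only matches, Cox4nb and Cox6c-ps1, differed by 0.20 (adjusted p = 0.685) and 0.31 (adjusted p = 0.704).

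Probe sets of the same gene can read different transcripts or parts of them. Of the member genes, 9 were read by 2 kept probe sets, and the 2 differences lay between 0.04 and 0.36 apart. In 4 of the 9, Atp5s, Ndufa9, Ndufv3 and Sdhd, the signs were opposite. Ndufv3, an accessory subunit near the NADH site with isoforms, gave 0.21 (95% interval -0.24 to 0.67) on 1368567_at and -0.06 (-0.21 to 0.09) on 1368566_a_at. Both probe sets of Ndufa7, Ndufaf7 and Atp5sl gave differences from -0.10 to 0.00. Of the kept members, 68 carry grade A, and none of these had an unadjusted p under 0.05. Their differences ranged from -0.15 to 0.31, with a median size of 0.05, and 61 of the 68 had an interval within 1.25-fold. The 8 members of grade B, C or E had a median size of 0.14, and 2 of them had an interval within 1.25-fold. The annotation also lists at least 1 cross-hybridising probe for 49 of the 76 kept members, whose signals are therefore less certain to come from the named gene alone.

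Other genes of the pathway were taken from lists, in each case through 1 probe set per gene. No gene of these pathway lists was called, on the probe set used or on the 10 other kept probe sets of the same genes, where 0.924% of all kept probe sets were called. Of 11 kept electron carrier genes, none had an unadjusted p under 0.05, and the smallest was that of Pdss2, an enzyme of ubiquinone synthesis, at 0.41 (adjusted p = 0.638). None of the 12 mitochondrial DNA genes listed was among the array's single symbols, so the subunits made inside mitochondria were not analysed here. Of 16 kept genes of the tricarboxylic acid cycle and pyruvate dehydrogenase, 1 had an unadjusted p under 0.05, which was Sucla2, a subunit of succinyl-CoA ligase. Its log2 signals were 12.21, 11.99 and 11.92 in SHR against 12.26, 12.25 and 12.24 in WKY, a difference of -0.21 (adjusted p = 0.345), with all SHR values below all WKY values.

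Of the 26 kept assembly factors outside the member prefixes, 3 were higher and 2 lower in SHR at an unadjusted p under 0.05, against 4.81% and 4.7% of all kept probe sets. Atpaf2, a chaperone for the alpha subunit of ATP synthase, had 8.87, 8.88 and 8.73 in SHR against 8.30, 8.29 and 8.51 in WKY, a difference of 0.46 (95% interval 0.18 to 0.73, adjusted p = 0.17). The strains did not overlap. The other 4, named after their values were seen, were Coa7, a complex IV factor (0.78, adjusted p = 0.315), Cox15, which makes heme A (0.25, adjusted p = 0.421), Ttc19, a complex III factor (-0.33, adjusted p = 0.215), and Nubpl, which places iron-sulfur clusters in complex I (-0.56, adjusted p = 0.326).

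Among 13 kept regulators of mitochondrial biogenesis, Tfb2m, which starts transcription of mitochondrial DNA, had 9.50, 9.60 and 9.44 in SHR against 9.32, 9.17 and 9.15 in WKY, a difference of 0.30 (adjusted p = 0.318). The strains did not overlap. The coactivator Ppargc1a differed by -0.12 (95% interval -0.68 to 0.44), Gabpa by 0.03 (-0.24 to 0.30) and Yy1 by 0.00 (-0.16 to 0.16), and the probe set of Nrf1 was not kept. Of the carriers that move ATP, ADP and phosphate across the membranes, 4 were kept and all 4 were below 0, with the ADP/ATP carrier Slc25a4 at -0.09 (adjusted p = 0.639). These 4 were bright, and 59.5% of the 2780 other probe sets as bright as most members were below 0 as deposited. The uncoupling protein family had 3 kept genes, all below 0, with Slc25a14 at -0.23 (adjusted p = 0.604).

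Cell type markers were set beside these results, because the amount of mitochondrial RNA differs between cell types. All 7 kept neuron markers were Present on all 6 arrays, 3 with a difference above 0 and 4 below, and their summed signal was 7.12e+04 to 7.24e+04 in SHR and 6.94e+04 to 7.77e+04 in WKY. All 6 oligodendrocyte markers were below 0 (2 of them at an unadjusted p under 0.05), with sums of 7.3e+04 to 7.82e+04 in SHR and 7.91e+04 to 8.53e+04 in WKY that do not overlap. These 6 markers were bright, and as deposited 59.5% of the 2780 other probe sets as bright as most members were below 0. Values of the markers after quantile normalization are not given here. Of the 6, Mobp, a myelin protein gene, was read by its brightest probe set (-0.17, adjusted p = 0.271), and another of its probe sets, 1368263_a_at, was called. That probe set had log2 signals of 11.88, 11.73 and 11.77 in SHR against 12.82, 12.88 and 12.66 in WKY, a difference of -0.99 (95% interval -1.14 to -0.84, adjusted p = 0.000111), while 1370500_a_at, also of Mobp, differed by -0.12 (adjusted p = 0.734). Probe set 1368263_a_at was the 1 called among the 12 other kept probe sets of the marker genes, and of these Stmn2 (neurons, 0.27) and Aqp4 (astrocytes, 0.53) had unadjusted p under 0.05. Astrocyte markers, with 4 of 6 above 0, summed to 2.69e+04 to 3.58e+04 in SHR and 3.1e+04 to 3.31e+04 in WKY, and the lowest and the highest array were SHR replicates 2 and 1. All 5 kept endothelial and mural markers were below 0, with Vwf at -0.85 (adjusted p = 0.0972), and so were the erythroid genes Hbb (-0.38) and Alas2 (-0.70). The other endothelial marker listed, Flt1, was Present on 2 arrays and not kept. It went the other way, with 6.74, 6.67 and 6.85 in SHR against 6.46, 6.46 and 6.17 in WKY. The choroid plexus marker Ttr had 6.51, 9.38 and 6.83 in SHR against 6.59, 6.62 and 6.60 in WKY, high in SHR replicate 2, which also gave the lowest complex V median. The other 2 genes of that list were at their lowest on the same array: Folr1 had 6.40, 5.87 and 6.14 in SHR against 6.88, 6.24 and 6.65 in WKY, and Kl, Absent on all 6 arrays, had 4.52, 4.10 and 5.31 in SHR against 5.04, 5.62 and 4.57 in WKY. The 5 microglia markers, with 3 above 0, summed to 1.59e+03 to 1.86e+03 in SHR and 1.71e+03 to 1.82e+03 in WKY. The part of any of these cell types in the lean of the members to the lower side was not tested.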

How the data were processed

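RNA of the rostral ventrolateral medulla of 3 SHR and 3 WKY was measured on Affymetrix rat expression arrays, and the strain named in each title gave the group. Deposited by the authors were log2 signals and detection calls (Present, Marginal or Absent) per probe set, and linear signal intensities. MAS5 is named in the submitters' processing notes, with no version given in the sources used here. The deposited log2 values matched log2 of the linear intensities the authors gave, after a floor of 1, to within 8.2e-06, and arrays had been scaled to a common level, with a trimmed mean of 500.14 on each. Such signals are noisy near background, and a strain's sequence difference under a probe can change a signal without a change in RNA.

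The 57 control probe sets were left out and log2 values were used as deposited. The 20790 probe sets Present on at least 3 arrays went into 1 linear model of strain in limma (version 3.58.1, R 4.3.3), moderated by eBayes with a variance trend. Tests were 2-sided, Benjamini-Hochberg adjustment covered all kept probe sets, and a call needed an adjusted p under 0.05. Differences are SHR minus WKY. A list gene was read from its brightest kept probe set. Python 3.11.15 summarised the fit per complex, and Ndufa4 was counted with complex IV. The fit was tested on simulated data. Each array is 1 animal, and the number of arrays limits the precision.

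Members, gene lists and alternatives were chosen with earlier results of these data known, and the NRF1 letters are a shortened core chosen after a first search. Described in full were, per complex, the 2 largest and the 2 most negative differences, the 5 smallest p, the core subunits, the tissue isoforms, Ndufc2, genes with 2 kept probe sets and the smallest p of each list. The labels number the animals 1 to 3 in each strain. Deviations of same-numbered animals correlated at 0.0774, -0.00994 and 0.066 over the kept probe sets, so the numbers were not used as pairs. Alternatives changed the scaling, pseudocount, filter, variance model, block, animals, probe set per gene and assignment to complexes. The values of 1 member gene are not reported here.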

Additional observations from a re-analysis of the deposited data

How the results depend on the processing

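No member was called under any alternative with all 6 animals, and 1 was called when animals were left out in turn (range 0 to 1), Uqcrc2 1382280_at without SHR replicate 3. Members at an unadjusted p under 0.05 numbered 1 as deposited, 4 with median centring, 3 with the replicate block, 0 among grade A members (a setting chosen after seeing the data) and 1 to 6 when animals were left out. Over all kept probe sets 192 were called, 63 without a variance trend and 78 to 205 when animals were left out. The median of complex II was -0.01 as deposited, -0.03 with median centring, 0.02 with quantile normalization, -0.02 with 1 probe set per gene, 0.01 by prefix alone, and -0.03 to 0.01 when animals were left out. That of complex III was -0.04, then -0.06 with median centring, 0.01 with quantile normalization and -0.05 to -0.01 when animals were left out. That of the factors was -0.04, then -0.07 with median centring, -0.08 with 1 probe set per gene and -0.07 to -0.03 when animals were left out. The cause of these shifts was not tested.

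Over all settings, 987 of 1063 single member values kept their sign and side of the threshold, 75 changed sign while uncalled, 15 of them under quantile normalization, and 1 became called. The replicate block changed no member's call, gave 196 called probe sets, and is no paired analysis, since the numbers only name the animals and did not correlate best with their own number in each case. With 3 animals a strain, the width of the intervals given limits what can be said of any single member.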

Other observations

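Another 15 probe sets carried several gene symbols, of which 1 had a member prefix. They were left out of the members and no gene is named from them. All 15 were kept, none was called, and 1 had an unadjusted p under 0.05 in the limma fit (adjusted p = 0.405). Their median log2 difference was -0.04, with a range of -0.13 to 0.03. The difference was below 0 for 11 and above 0 for 4, and all 15 had a 95% interval within 1.25-fold.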
